A study of Mus musculus with 2 samples.

Results

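The shared 5' UTR peaks are stretches of RNA upstream of the coding sequence that were recovered with the protein Prrc2a in both replicates of a RIP-seq experiment, and 487 of the 8372 shared peaks (5.82%) belonged to them. RIP-seq sequences the RNA that comes down with an antibody against a protein, here Prrc2a, which has been studied as a reader of the RNA mark N6-methyladenosine (m6A). Prrc2a was pulled down from whole brain taken from male mice of the C57BL/6J strain, wild type and 4 weeks old, and 1 condition was sampled in 2 replicates. The protocol describes 3 brains, and the labels do not say which animals went into which replicate. Before sequencing, micrococcal nuclease trimmed the RNA that was held on the beads. The lists give the position of each peak on mm10 (GRCm38) and a fold enrichment over the control, with no strand, gene or read count, and the control library is not named in the sources used here.

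Members were chosen by position. A replicate 1 peak counted when it overlapped a replicate 2 peak by at least 1 bp, touched no start or stop codon of a protein-coding transcript of GENCODE M21, and had its midpoint in a 5' UTR and in neither CDS nor 3' UTR. The lists hold 18129 peaks for replicate 1 and 18671 for replicate 2, and calling, overlap and midpoint were thus what selected the members. With 1 condition and 2 libraries no test between conditions was possible, and peaks of 1 library are not replicates of each other, so values are given for each replicate side by side. The depth is unknown, and in whole brain fewer cells of a type and less RNA per cell cannot be told apart. Of the tissue markers, 1 of 4 for astrocytes (Slc1a2), 1 of 5 for the oligodendrocyte lineage (Olig2), 0 of 5 for neurons, 0 of 3 for microglia and 0 of 4 from outside the brain had a shared exonic peak. A marker without a peak is not a marker without expression in this assay.

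The 5' UTR is the part of an mRNA that the small ribosomal subunit scans on its way from the cap to the start codon. Upstream ATG triplets, stable folds and bound proteins in it are known to change how often the main reading frame is translated, and many genes of neural development and signalling have long ones. The m6A mark is deposited on the A of the sequence family DRACH (D is A, G or U, R is A or G, and H is A, C or U), of which GGAC is the best known core. In mRNA the mark is known to be most frequent near stop codons and in long internal exons, and a smaller amount is found in 5' UTRs.

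To show what this core looks like in the most enriched members, the GGAC nearest to the middle of the overlap of both peaks is printed here for 11 genes, in order of mean enrichment, with 13 bases on either side. All are on the strand of the gene, 5′ to 3′, from GRCm38, and the capitals mark GGAC.
Dsel: ggtcagacagtggGGACtggagcagaagga
Kcnn1: gccgccgcggaggGGACacctgaccgtccc
Dlc1: gagccgctaaccgGGACagactcctctcct
Nin: acaggtggagtggGGACgccgctcgggttg
Fam196a: gcaggagccgaagGGACtcgagctgcggcg
Thnsl1: cacctgtcgcaccGGACcctgcggcgggcc
Gm2163: tcttcacggtttgGGACctttccatccctt
Auts2: cgccacccgcccgGGACttggctgcgttgg
Myt1l: tttttgattccctGGACtgtgggttatgaa
Hecw1: tttctcaacagtgGGACtctccggctgtgg
Flrt1: acagtcctagcagGGACattttgggagagg
The GGAC of each gene lies at Dsel chr1:111864326-111864329 (- strand), Kcnn1 chr8:70863103-70863106 (- strand), Dlc1 chr8:36952187-36952190 (- strand), Nin chr12:70111356-70111359 (- strand), Fam196a chr7:134937959-134937962 (- strand), Thnsl1 chr2:21205952-21205955 (+ strand), Gm2163 chr4:42466962-42466965 (+ strand), Auts2 chr5:131537982-131537985 (- strand), Myt1l chr12:29528603-29528606 (+ strand), Hecw1 chr13:14521452-14521455 (- strand) and Flrt1 chr19:7105523-7105526 (- strand). All lie in annotated 5' UTR, 10 in exon 1 and that of Nin in exon 2. In 5 of the 11 the next base is T, which makes the GGACT form. The 30 bases occur once in the reference chromosomes for 10 of the genes, but 15 times for Gm2163, a predicted gene, whose reads may thus come from any of these copies. The site lay 56 nt ahead of the start codon in Hecw1, the nearest, and 1072 nt ahead in Dsel, the farthest. A GGAC is a match of letters only, and whether its A carried m6A was not measured here. Of the genes passed over, Slc8a1, Mief1, Gtf2i and Dse held no GGAC in the 5' UTR bases of the peak. The gene 2900026A02Rik held 1 without 13 bases of unbroken 5' UTR on both sides. Asxl3, though a member, was left out by a separate rule for the printed sequences, which excludes its chromosome.

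The 487 peaks lay in 461 genes, which is 18% of the 2558 coding genes with any shared exonic peak. Of these genes, 438 held 1 member, 21 held 2, Lingo2 held 3 and Atxn1 held 4, so peaks of the same gene are not independent of each other. In replicate 1 the annotation rule found 826 candidate peaks, of which 59.0% were shared, against 46.2% of all replicate 1 peaks. The rate was close to that of CDS peaks (58.4%) and 3' UTR peaks (60.2%), and lower than that of peaks over a start codon (71.1%) or a stop codon (75%). Among shared peaks, those over a start or stop codon were also wider in replicate 1, with medians of 642 and 809 bp. The medians were 403 bp in 5' UTR, 450 bp in CDS and 411 bp in 3' UTR, and the rates were not adjusted for width. The 339 candidates without a replicate 2 peak had a median enrichment of 2.60 in replicate 1, above the 2.36 of the members. At the edge of the rule, the least overlap was 70 bp, in Gpr37 (fold enrichment 1.96 in replicate 1 and 1.6 in replicate 2), followed by 77 bp in Fbxw7 and 95 bp in Map1b. Just outside, the nearest replicate 2 peak lay 10 bp away in Zmynd8 and 44 bp away in Zfp30. At the other end, Pdgfa, which encodes a growth factor for oligodendrocyte precursors, had 2978 bp in common, with enrichments of 2.91 and 3.42.

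Enrichment was modest and differed between replicates. The members had a median fold enrichment of 2.36 in replicate 1 (quartiles 1.85 and 3.34, range 1.28 to 9.30) and 2.79 in replicate 2 (quartiles 2.23 and 3.74, range 1.30 to 9.99). The medians over all shared peaks were 2.35 and 2.88. Among the mRNA regions, shared peaks over the start codon had 2.54 and 3.01, CDS peaks 2.30 and 2.79, stop codon peaks 2.26 and 2.82, and 3' UTR peaks 1.99 and 2.65. The 5' UTR members thus sat below the start codon peaks and above the 3' UTR peaks in both replicates, while they sat above CDS and stop codon peaks in replicate 1 but not in replicate 2. The replicate 2 value was the higher in 317 of 487 members, with a median log2 ratio of replicate 1 over replicate 2 of -0.18 (SD 0.54 over members). Over all shared peaks it was the higher in 5898 of 8372, with a median log2 ratio of -0.25, so this tilt is not particular to the members. In 36 members the replicates differed by more than 2-fold, 8 of them higher in replicate 1. Such differences were not counted over all shared peaks. Both replicates reached an enrichment of 4 or more in 36 members (7.39%), against 8.62% of all shared peaks, 10.8% of start codon peaks, 5.66% of CDS peaks and 2.18% of 3' UTR peaks. Some enrichment values recur exactly, and 32 members (6.57%) had a replicate 1 value held by at least 10 peaks, as did 5.96% of all shared peaks.

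**Figure D1:**
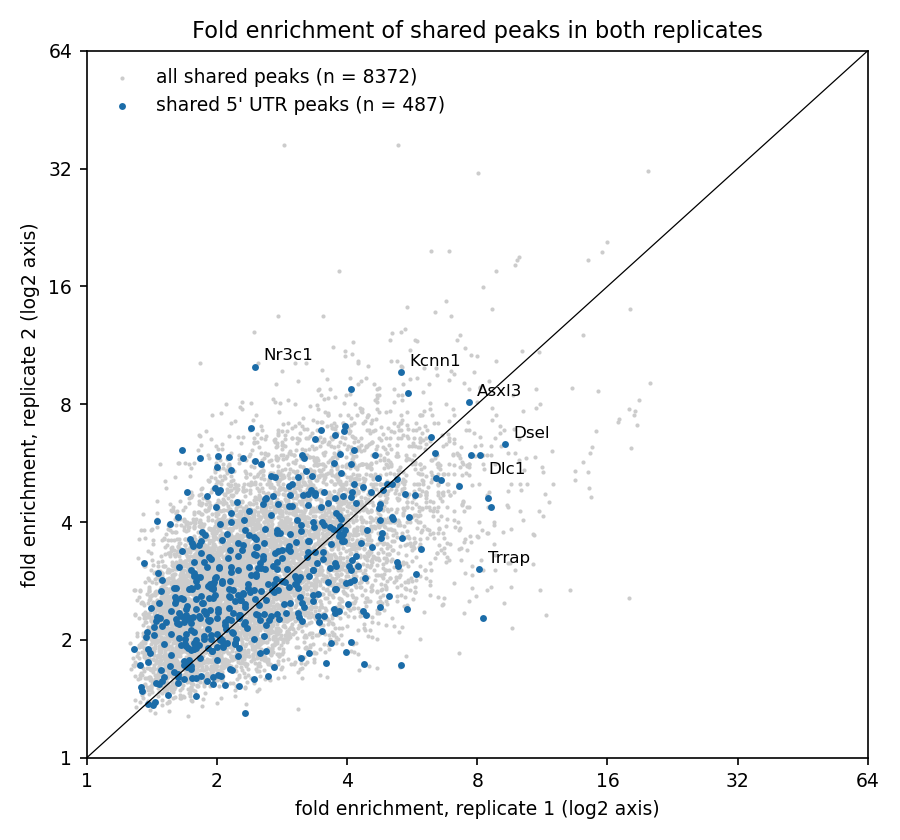
Fold enrichment of each shared peak in replicate 1 (x axis, log2) against replicate 2 (y axis, log2), with all 8372 shared peaks in grey and the 487 shared 5' UTR peaks in blue, and the diagonal as the line of equal values. The 5' UTR peaks lie within the cloud of all shared peaks, and 317 of them lie above the diagonal, as do 5898 of all shared peaks.

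The gene at the head of the list was Asxl3, which encodes a Polycomb-associated chromatin protein, at 7.65-fold (replicate 1) and 8.11-fold (replicate 2). Its peak lay in exon 3, with the midpoint 118 nt ahead of the start codon. Dsel, an epimerase that makes dermatan sulfate, followed with 9.30 and 6.34, and its relative Dse had 3.96 and 7.02. The enrichments of Kcnn1, a small-conductance calcium-activated potassium channel, were 5.34 and 9.67. Those of Dlc1, a GTPase-activating protein, were 8.10 and 5.93. For the uncharacterised gene 2900026A02Rik they were 5.52 and 8.53. In 5 of these 6 genes the replicates differed by more than 1 unit of fold, and only in Asxl3 were they close.

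Of the next genes, Nin encodes the centrosomal protein ninein (7.74 and 5.95) and Fam196a a protein of inhibitory synapses (6.24 and 6.58). Slc8a1 encodes a sodium-calcium exchanger (8.48 and 4.61). Thnsl1, a threonine synthase-like gene, had 8.61 in replicate 1 but 4.38 in replicate 2. Mief1 encodes a protein of mitochondrial fission, and its human mRNA is known to carry a translated upstream reading frame. Its peak had 7.26 and 4.95, with the midpoint 776 nt ahead of the start codon, and its 410 5' UTR bases held 3 ATG triplets. Fam196a and Bmp2 (5.22 and 5.15), a secreted growth factor, had close values in both replicates.

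Auts2, a neurodevelopmental gene whose product joins a Polycomb complex, had 6.59 and 5.12 in a peak of 1188 bp, and a further member at 2.01 and 5.52. Gtf2i, a general transcription factor, had 6.44 and 5.17. Myt1l, a zinc finger factor that keeps neurons neuronal, had 4.64 and 5.95, with a further member at 3.06 and 4.05. Hecw1, a ubiquitin ligase, had 5.74 and 4.69, and Unc13b, which primes synaptic vesicles for release, had 5.45 and 4.72. The adhesion molecule Flrt1 had 3.93 and 6.85. Gm2163, the gene with 15 copies of its printed bases, had 4.09 and 8.78, which is the largest ratio between replicates among the 20. Outside the first 20, Nr3c1, the glucocorticoid receptor, had the highest value of any member in replicate 2 (9.99) and only 2.45 in replicate 1, and Trrap, a scaffold of histone acetyltransferases, had 8.10 in replicate 1 and 3.03 in replicate 2. These last 2 genes were named after their values were seen.

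**Figure D2:**
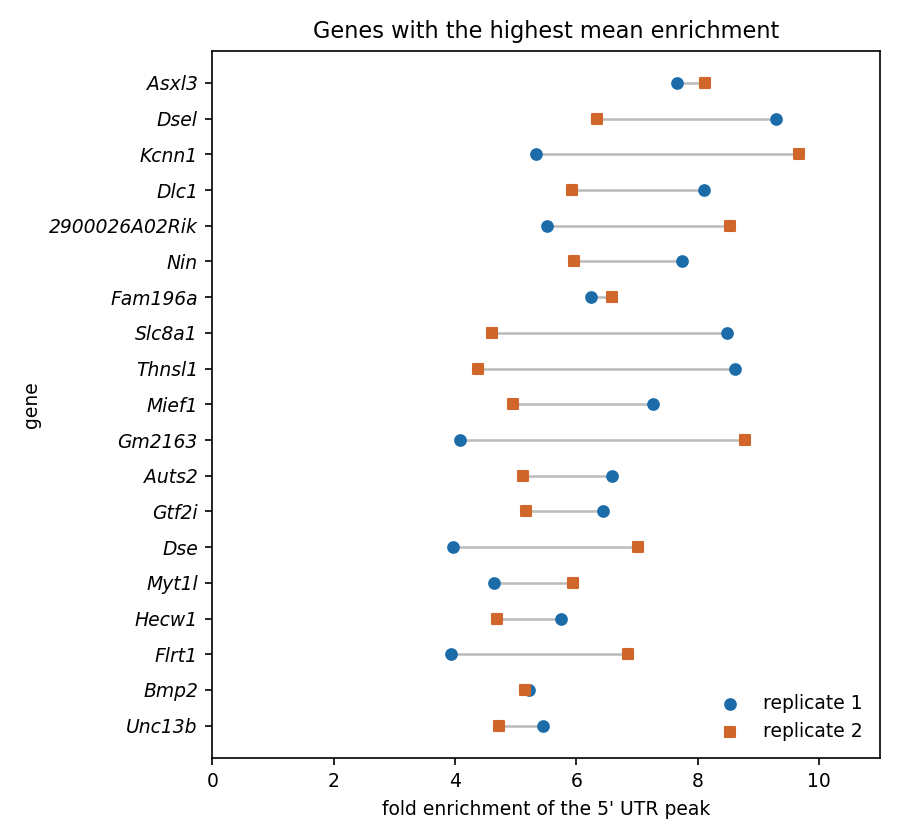
Fold enrichment of the most enriched 5' UTR peak of 19 of the 20 genes with the highest mean log2 enrichment, with circles for replicate 1, squares for replicate 2 and a line joining them. The order runs from Asxl3 (7.65 and 8.11) to Unc13b (5.45 and 4.72), and the lines are long for genes such as Gm2163 and Thnsl1.

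Most members lay in the first exon. The midpoint fell in exon 1 for 445 of 487 members (91.4%), in exon 2 for 31 and in a later exon for 11. Measured from the replicate 2 peak, exon 1 held 414 of the 454 midpoints that fell in a 5' UTR (91.2%). The median spliced distance of the midpoint to the start codon was 335 nt in replicate 1 and 301 nt in replicate 2, and that from the transcript start was 234 nt and 267 nt. The rule sets part of this, since a peak of at least 200 bp that may not touch a start codon must have its midpoint some way from it, unless an intron lies between. The rule also favours long 5' UTRs. The longest annotated one of a member gene had a median of 644 nt, against 317 nt in the other genes with a shared exonic peak and 204 nt over all 21951 coding genes. How much of this difference the rule sets was not tested. The midpoint was nearer to the transcript start than to the start codon in 64.3% of members from replicate 1 and 51.5% from replicate 2. These 2 values were not measured alike. Only the replicate 1 peak had to avoid start codons, and replicate 2 midpoints outside a 5' UTR were left out. How much of the gap this sets was not tested. With the rule applied to each replicate on its own, the shares were 63.0% in replicate 1 and 57.1% in replicate 2.

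**Figure D3:**
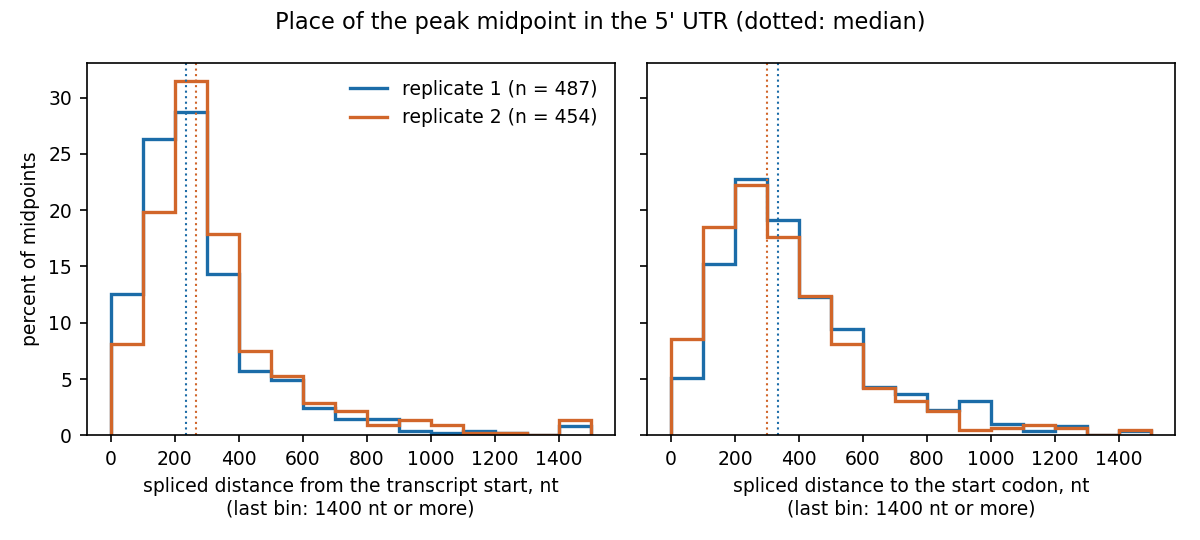
Histograms of the spliced distance of the peak midpoint from the transcript start (left) and to the start codon (right), in bins of 100 nt with all longer distances in the last bin, as percent of midpoints, for replicate 1 (n = 487) and replicate 2 (n = 454). Dotted lines mark the medians of 234 and 267 nt (left) and 335 and 301 nt (right), and the curves of both replicates are broad and overlap.

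The replicate 2 partner was itself inside a 5' UTR for 390 members (80.1%), which the required overlap with a 5' UTR peak largely sets. It covered a start codon in 70 members (14.4%), and its midpoint fell in an intron for 17. Peaks were 403 bp wide at the median in replicate 1 and 420 bp in replicate 2, and the midpoints of a pair lay a median of 53 bp apart. In 365 pairs (74.9%) the overlap took up at least 50% of both peaks. The 70 members whose partner reached a start codon had a lower median in replicate 1 (1.97, against 2.46 in the other 417) and nearly the same in replicate 2 (2.71 against 2.79).

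Atxn1 and Lingo2 had peaks in several separate exons of the 5' UTR. Atxn1, which is mutated in a spinocerebellar ataxia and acts as a transcriptional repressor, had members in exons 1, 2, 3 and 4 of a 5' UTR that spans 6 exons, spread over 169752 bp of chromosome 13 on the minus strand. From exon 1 on, they lay at chr13:45964593-45965099 (3.66 and 3.88), chr13:45956277-45956728 (3.87 and 5.35), chr13:45852151-45852633 (4.43 and 2.32) and chr13:45795348-45795794 (2.43 and 2.01). The values for exon 4 were the lowest in both replicates. Lingo2, a leucine-rich repeat membrane protein of neurons, had 3 members spread over 370249 bp of chromosome 4. Their enrichments were 3.73 and 2.39, 3.03 and 2.79, and 2.21 and 1.96. These exons are short, and 26.7% to 64.9% of the bases of the Atxn1 peaks and 19.5% to 35.0% of the Lingo2 peaks were exonic, the rest being intron.

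Intron and upstream bases were present in other members too. The exonic share of a member had a median of 91.7%, and in 35 members at least 50% of the peak was not exonic. These 35 had medians of 3.12 in replicate 1 and 2.85 in replicate 2. In 107 members (22.0%) the peak ran past the annotated start of the gene, Kcnn1 and Myt1l among them, and the 107 had medians of 2.58 and 2.92. In 143 members (29.4%) the midpoint was an intron base of another coding transcript of the gene, and in 124 (25.5%) it was 5' UTR in every coding transcript. Since the lists have no strand, the 51 members that overlapped an exon of a gene on the opposite strand, Kcnn1, Myt1l and Hecw1 among them, cannot be assigned to 1 of the 2 genes.

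The bases around the members were rich in G and C, chiefly in exon 1. The GC content of the 5' UTR bases of a peak had a median of 66.0% in the 445 exon 1 members and 51.8% in the 42 in later exons. The background windows below were not matched for exon. In windows that reached 50 bases to either side of the midpoint and lay wholly inside 5' UTR, the mean GC content was 63.7% at replicate 1 midpoints (n = 434) and 64.7% at replicate 2 midpoints (n = 409), against 57.2% in all 50297 such windows of coding genes and 60.9% in the 10798 windows of genes with a shared exonic peak. The difference from all windows was 6.94 percentage points (SD between the 2 midpoints of the same pairs 0.75, n = 2). The windows of a pair often share bases, so this SD is not a spread between separate replicates. With each replicate placed on its own, the difference was 5.06 percentage points in replicate 1 and 8.53 in replicate 2. The predicted folding energy of the members was also lower, with medians of -35.2 and -36.9 kcal/mol against -29.1 in all windows and -31.9 in genes with a shared exonic peak. Folding energy was not compared at like GC content, so it is not shown to be a separate trait. Shared start codon peaks had a GC content of 59.8% and 60.7% and medians of -30.5 and -31.3 kcal/mol. Shared CDS peaks had a GC content of 54.4% and 54.6%, and shared 3' UTR peaks 47.6% and 47.5%. A G-quadruplex pattern, that is 4 runs of at least 3 G with 1 to 7 bases between them, was found in 3.0% and 2.69% of the members' windows and in 2.82% of all windows.

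GGAC was present in 44.0% and 42.5% of the members' windows, in 36.0% of all 5' UTR windows and in 38.5% of those of genes with a shared exonic peak. The difference from all windows was 7.24 percentage points (SD between the 2 midpoints of the same pairs 1.04, n = 2), and 2.07 for the members with an enrichment of 4 or more in each replicate. For GGACT the shares were 15.0% and 13% against 11.1%. The wider DRACH family was found in 72.6% and 69.2% of the members' windows, against 77.3% of all windows and 73.2% of those of genes with a shared exonic peak. This difference depended on GC content: under 50% GC the members' shares were 80.7% and 79.2% against 88.5% of all windows, and at 70% GC or more they were 64.9% and 62.3% against 53.6%. GGACT is a DRACH sequence, as is GGAC unless a G follows it, and only the gene strand was searched. For comparison, 40.2% and 42.3% of windows at shared CDS peaks and 29.8% and 28.1% at shared 3' UTR peaks held GGAC. Over whole members, 382 of 487 (78.4%) held a GGAC in their 5' UTR bases, which had a median length of 312. No background of that length was counted for this share. In all 5' UTR windows the share rose with length, from 20.2% to 36.0% and 48.3% for windows reaching 25, 50 and 75 bases to either side. Members without a GGAC were no less enriched in replicate 1 (median 2.49 against 2.32) and close in replicate 2 (2.78 against 2.79).

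**Figure D4:**
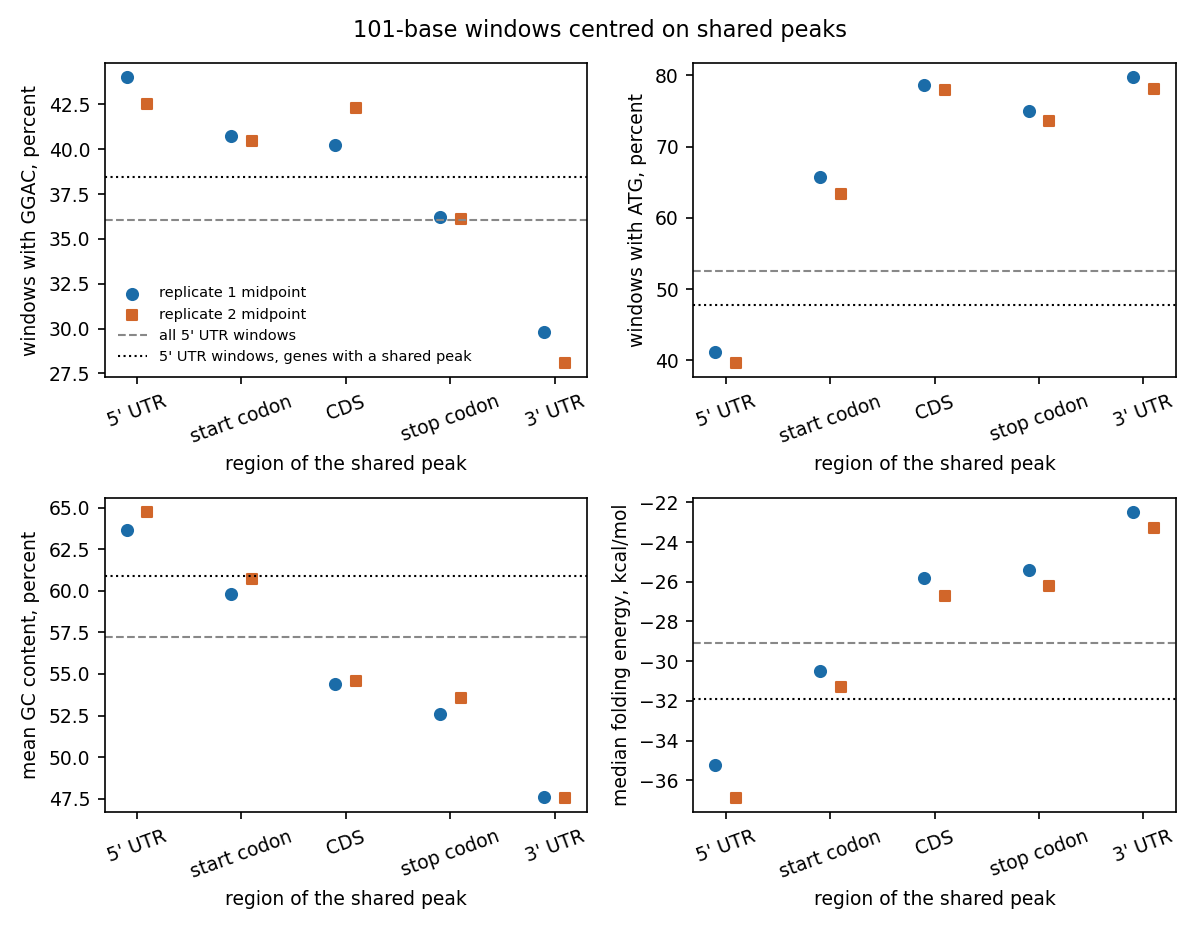
Share of windows with GGAC, share with ATG, mean GC content and median folding energy of windows reaching 50 bases to either side of the midpoint of shared peaks, by region of the peak, with circles for replicate 1 midpoints and squares for replicate 2 midpoints. The y axes do not start at 0, the dashed line marks all 5' UTR windows and the dotted line those of genes with a shared exonic peak, and the 5' UTR peaks have the highest GC content (63.7% and 64.7%) and the fewest windows with ATG (41.2% and 39.6%).

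Upstream ATG triplets were less frequent around the members than in 5' UTRs at large: 41.2% and 39.6% of windows held one, against 52.6% of all 5' UTR windows and 47.8% in genes with a shared exonic peak. Among the members with an enrichment of 4 or more in each replicate, with 31 and 32 windows, the difference from all windows reversed (58.8% against 52.6%). The GC content moved with this difference. In windows with a GC content of 70% or more, the ATG share was 24.5% and 25.8% in members and 26% in all windows, and between 60% and 70% it was 36.4% and 36.2% against 37.6%. With the background weighted to the members' GC content in steps of 5 percentage points, the background share was 41.8%. The difference then shrank from -12.1 to -1.41 percentage points. It was 41.2% against 42.7% at replicate 1 midpoints and 39.6% against 41.0% at replicate 2 midpoints. The members' shares themselves, without weighting, had an SD of 1.16 between the 2 midpoints of the same pairs (n = 2). For GGAC the same weighting gave 40.0% and left a difference of 3.26 percentage points. In windows of 70% GC or more, 49.7% and 47.0% of the members held GGAC against 41.5%, but between 50% and 60% GC both replicates fell below the background, with 36.1% and 23.6% against 38.7%.

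**Figure D5:**
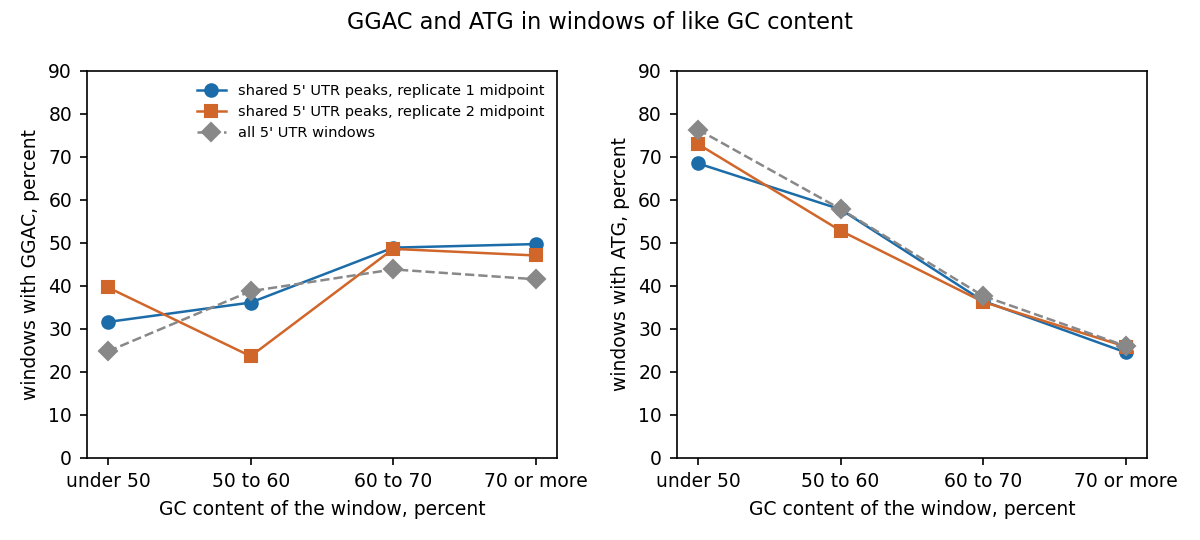
Percent of 5' UTR windows (50 bases to either side of the centre) with GGAC (left) and with ATG (right) in 4 classes of GC content, for members at replicate 1 midpoints, members at replicate 2 midpoints and all 5' UTR windows of coding genes. At 60% GC or more the ATG values of members and background lie close together, and there members held GGAC more often than the background in both replicates (48.8% and 48.6% against 43.8% between 60% and 70%).

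Most member genes had other shared peaks as well. Of the 461 genes, 156 (33.8%) also had one over the start codon, 201 (43.6%) in CDS, 164 (35.6%) over the stop codon and 179 (38.8%) in 3' UTR. In the other 2097 genes with a shared exonic peak these shares were 36.1%, 53.4%, 34.5% and 41.2%, where a gene enters only through one of those other regions, so lower shares in the members are partly set by the definition. In 132 genes (28.6%) shared peaks were found in the 5' UTR alone. Their 137 members had medians of 2.05 and 2.34, against 2.50 and 2.93 in the 350 members of genes with further shared peaks. Aste1 (5.09 and 5.02), the transcription cofactor Eya1 (3.76 and 6.69) and Il1rapl2 (4.94 and 5.02), a receptor of the interleukin 1 family, were in this group, as was Trrap. Across members, the enrichment in replicate 1 and replicate 2 had a Spearman rank correlation of 0.55 (0.58 over all 8372 shared peaks). The rank correlation with GC content was -0.14 in replicate 1 and -0.08 in replicate 2, and with the distance to the start codon 0.03 and 0.05. The points of these correlations share 2 libraries and in part the same genes.

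Neural gene families were represented to different degrees, given here as the share of each list's genes with a shared exonic peak that also held a shared 5' UTR peak, beside 18% for all such genes. The shares were not adjusted for 5' UTR length, where the longest one had a median of 644 nt in member genes and 317 nt in the others. Nor were they adjusted for the number of shared peaks per gene, with medians of 3 and 2. Among synaptic adhesion molecules and scaffolds it was 19 of 50 genes (38.0%). These included Lrfn3 (3.38 and 6.52), Nlgn1 (3.92 and 4.65), Il1rapl1 (3.98 and 2.80), Slitrk3 (3.65 and 3.05) and Flrt2 (3.25 and 3.35), all transmembrane organisers of synapses, and further down the neurexins Nrxn2 and Nrxn3. The list's members had medians of 2.40 and 2.80, close to all members, and none reached 4 in both replicates. Of the glutamate and GABA receptor genes 5 of 13 held a member (38.5%), namely Grin2b (3.07 and 2.85), Grin2a (3.97 and 1.86), Grik1 (1.94 and 3.21), Grm5 (1.85 and 2.49) and Gabrb2 (1.57 and 2.07). Grin2b and Grin2a encode NMDA receptor subunits, and their 5' UTR peaks held 8 and 3 ATG triplets.

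Potassium channels held a member in 10 of 40 genes (25%), with medians of 3.30 and 3.23, the highest of the channel and receptor lists in both replicates. After Kcnn1 came Kcnj6 (3.77 and 4.22), an inward rectifier gated by G proteins, and Kcna4 (4.56 and 3.45), a voltage-gated channel. Kcns2 had 4.08 and 3.01, Kcng1 3.77 and 2.70, and Kcnj2 2.33 and 3.81. The calcium and sodium channel list had 3 of 14 genes, Cacng8 (2.36 and 2.71), Scn4b (2.24 and 1.83) and Cacng2 (1.70 and 2.40), all of them auxiliary subunits. The axon guidance list had 6 of 36 genes (16.7%), led by the semaphorin Sema6a (3.86 and 5.98) and Rgmb (5.22 and 3.17), a coreceptor for bone morphogenetic proteins.

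Of the factors that act in the nucleus, homeobox and Pax genes had a member in 9 of 29 (31.0%). Satb1, which organises chromatin, had near equal values in both replicates (3.52 and 3.36). Tshz2 had 2.23 and 4.49, and Prox1 2.58 and 3.55. Chromatin remodelers and histone modifiers had 14 of 69 (20.3%), among them Brd2 (3.34 and 3.01), Sin3a (2.71 and 2.77) and Chd2 (1.73 and 3.61) behind Asxl3 and Auts2. Wnt, Notch and Hedgehog genes had 8 of 35 (22.9%). The secreted Wnt5a held 2 members, 1 at 4.15 and 6.10 with a partner that reached the start codon and 1 at 3.24 and 3.26 farther upstream, and the receptor Fzd5 had 3.34 and 4.01. The bHLH and zinc finger list had 4 of 27 (14.8%), with Mef2c at 1.69 and 1.95 and Nr2f1 at 1.73 and 1.78 after Myt1l, and the Sox and forkhead list had 2 of 16, Sox1 (3.03 and 2.91) and Foxj2 (2.60 and 2.54).

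Receptor tyrosine kinases and Ras signalling had 7 of 30 genes (23.3%), led by Met, the receptor of hepatocyte growth factor (4.09 and 5.62), with the neurotrophin receptor Ntrk2 at 2.07 and 1.92. Ubiquitin ligases and proteases had 14 of 77 (18.2%), led by Klhl15 (3.49 and 6.87), and phosphatases and calcium kinases 4 of 18 (22.2%), led by Ppm1h (1.96 and 2.70). Immediate early genes had 3 of 19 (15.8%), Nr4a2 (5.11 and 4.08), Nr4a3 (4.08 and 1.98) and Jun (1.74 and 2.27). RNA-binding proteins had 5 of 34 (14.7%), among them the splicing cofactor Srrm2 (3.37 and 4.75) and the silencing factors Tnrc6b (2.06 and 2.83) and Tnrc6c (1.97 and 2.81).

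For mRNAs known for regulation through the 5' UTR, the shares rest on small numbers of genes with a shared exonic peak. Such a peak was present in 2558 of all 21951 coding genes, and in 9 of the 27 growth control genes with a long 5' UTR. Of the 6 iron responsive element mRNAs, 2 had a shared exonic peak and 1 of these (50%), Epas1, a member (1.33 and 1.73). Its peak ranked 479 of 487 by mean enrichment, and the replicate 2 partner reached the start codon. Growth control genes with a long 5' UTR had 3 of 9 (33.3%), among them Tgfb1 (2.30 and 5.84) and Pdgfb (2.44 and 3.67). TOP mRNAs encode ribosomal proteins and elongation factors and begin with a pyrimidine tract. None of the 98 had any shared exonic peak, in the 5' UTR or elsewhere, against 2558 of all 21951 coding genes. Whether binding, read numbers or the filter for unique reads sets this was not tested. Translation initiation factors (6 with a shared exonic peak), clustered histone genes (33) and oligodendrocyte lineage genes (4) had no member. Lists of 6 and 4 genes are too small to tell this from the 18% of all such genes. The 5' UTR lengths of the histone genes, on which the rule depends, were not compared.

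For the cell type lists of the study, 20 of 80 oligodendroglial genes with a shared exonic peak held a 5' UTR member (25%), 18 of 102 astrocytic genes (17.6%) and 30 of 140 neuronal genes (21.4%). The study itself drew up these lists, so they are not independent evidence. The leading oligodendroglial members were Brinp3 (3.62 and 4.47), Tnr (2.45 and 5.72), an extracellular matrix protein around axons, and Slitrk3. The leading astrocytic ones were Nr4a2, Tgfb2 (3.18 and 5.83) and the metalloproteinase Adamts5 (4.10 and 3.21), and the leading neuronal ones Fam196a, Myt1l and Hecw1. The members had medians of 2.15 and 2.56 in the oligodendroglial list, 2.69 and 2.76 in the astrocytic list and 2.21 and 2.87 in the neuronal list, an order that differed between the replicates. None of these differences between lists was tested.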

How the data were processed

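Prrc2a RIP-seq peaks of 2 replicates of wild-type mouse brain were analysed. Per the submitters' processing notes, TopHat2 2.0.9 and MACS2 2.0.10 were used on mm10, while the study's methods name later versions of both, a filter on mapping quality (20 or more) for unique reads and an FDR under 0.05. Each replicate has its own peak list. The authors deposited peak positions and, as a linear ratio, the fold enrichment over a control that is not given in the sources used here. Read numbers are not in these lists, so depth and counting error are unknown, and a called peak is an enriched region, not a bound base.

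From these lists, positions were read as 1-based with both ends included and placed on GENCODE M21 with sequence of GRCm38.p6 (RefSeq). The replicate 2 partner was the peak with the most common bases, the gene that coding gene whose exons shared most bases with the peak, and the transcript the one with the shortest spliced distance to its start codon. Windows reaching 50 bases to either side had to lie inside merged 5' UTR bases of 1 exon and off CDS and 3' UTR, and background windows tiled the same bases without overlap. Folding energies came from RNAfold 2.7.2. Other calculations used Python 3.11.15 with numpy 2.4.6, and figures matplotlib 3.10.9. All 24 checks on simulated data gave the known answer.

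The named genes are the 20 with the largest mean log2 enrichment, the gene with at least 4 members, up to 6 members of each gene list, and the extremes of overlap. Other genes were named after their values were seen. The 23 gene lists were written by hand from gene families, and 124 of the 461 genes were in at least 1. The members and lists were chosen with earlier results of these data known. Alternatives changed overlap, enrichment, replicate, annotation, region rule, gene assignment, window, motif, background and transcript, and the weighting to GC content and its classes were chosen after seeing the data. Some genes and lists that the rule would name are not reported here.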

Additional observations from a re-analysis of the deposited data

How the results depend on the processing

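Of 107 values recomputed under 15 alternatives, 56 stayed within 1.5 times (counts), the 95% Wilson interval (shares of peaks) or 1 SD between replicates (other values). This SD compares the 2 peaks of the same overlapping pairs, so it is not a spread between separately placed replicates. With each replicate on its own, there were 826 to 829 peaks in 750 to 767 genes, 4.44% to 4.56% of the peaks, with 89.0% to 89.5% in exon 1 and a median distance to the start codon of 286 to 296 nt. The differences from all 5' UTR windows were then 6.62 to 8.36 percentage points for GGAC, -13.0 to -9.35 for ATG and 5.06 to 8.53 for GC content, and -8.30 to -4.15 kcal/mol for folding energy. An enrichment of 4 or more in each of the 2 replicates left 36 peaks in 36 genes (4.99% of the shared peaks), with medians of 5.10 and 5.0, 5.56% of partners over a start codon, 85.9% in exon 1 and a distance of 357 nt. In those 31 and 32 windows GGAC differed by 2.07, GC by 5.50 and folding energy by -3.83 kcal/mol, and the ATG difference reversed to 6.2 percentage points. The cause was not tested. An overlap of 50% of both peaks gave a share of 6.89% and 7.12% of partners over a start codon, and the rule on 50% of exonic bases gave 7.04% and 91.8% in exon 1. The exon 1 share was 91.1% with replicate 2 peaks placed, 91.5% with GENCODE basic transcripts and 91.0% with the longest transcript. Placing replicate 2 peaks also gave differences of 5.70 for GGAC, -10.6 for ATG and 6.13 for GC. Windows reaching 25 and 75 bases to either side gave 5.08 and 10.5 for GGAC, -8.31 and -14.6 for ATG, and -2.63 and -10.0 kcal/mol. The difference was 2.83 for GGACT and reversed to -6.41 for DRACH. Against genes with a shared exonic peak it was 4.82 for GGAC, -7.37 for ATG, 3.27 for GC and -4.18 kcal/mol, and weighting to GC content gave 3.26 for GGAC and -1.41 for ATG. No paired analysis was possible because there was a single group. Without read numbers, too few reads and no binding look the same in a gene without peaks, and an input level of each mRNA was not used here.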
